A study of Mus musculus with 9 samples.

Results

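The 42 genes described here are immediate early and other activity-induced genes, which neurons and other cells transcribe within minutes to hours of a stimulus. They were taken by symbol from the count table of 20731 genes, and all 42 were found and all passed the expression filter that left 14746 genes for testing. By role they fall into 4 EGR zinc finger factors, 7 AP-1 and other bZIP factors, 8 further inducible transcription factors, 13 feedback regulators of signaling and growth, and 10 synaptic and secreted effectors. The rule is a list of symbols without a threshold on measured values, but the list was drawn up with earlier results of these data known, so the shares of members given below are descriptions and not independent evidence.

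On day 2 after surgery, brain RNA was sequenced from 9 male C57BL/6J mice aged 8 to 10 weeks, and 3 mice made up each of the 3 groups. In every mouse, the CVST controls included, ferric chloride had been applied to the superior sagittal sinus to form a thrombus (cerebral venous sinus thrombosis, CVST). Ligation of the deep cervical lymph nodes was added in the CVST_Ligation group (CVST+Ligation here), and the CVST_Ligation_4_PBA group (4-PBA here) had the ligation and 100 mg/kg intraperitoneal 4-phenylbutyric acid, an inhibitor of endoplasmic reticulum stress, given 30 min before modelling by the methods and after the ligation by the series description. Isoflurane anaesthesia and butorphanol analgesia were common to all surgery, and sham-operated mice are not among these libraries. The CVST group had no neck surgery that the methods describe, so ligation and neck surgery cannot be told apart. The time between the last handling of a mouse and tissue collection is not given in the sources used here.

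Immediate early genes carry promoters that are ready before the stimulus arrives. Calcium entry through synaptic receptors and voltage-gated channels activates kinases that phosphorylate CREB, bound at cAMP response elements (CRE), and the serum response factor complex, bound at CArG boxes. The first products are mostly transcription factors such as Fos, Egr1 and Npas4, which turn on a later set of effectors that act at synapses, and short-lived mRNAs together with phosphatases such as Dusp1 bring the response back to rest. In cortex and hippocampus these mRNAs are widely used as a record of recent neuronal firing, while several of them also respond to growth factors, injury, seizures and inflammation.

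The promoters of members whose level the results turn on are shown to let these elements be read directly. RefSeq windows on GRCm38.p6 of 250 bases before to 50 bases after a transcription start were matched for 32 of the 42 genes (50 windows), and not for Egr1, Egr3, Arc, Nptx2, Nrn1, Vgf, Ier2, Sik1, Trib1 and Klf10. The full CRE, TGACGTCA, which reads the same on both strands, occurred in windows of 6 of these 32 genes (Arl4d, Btg2, Dusp1, Errfi1, Maff and Pcsk1), which is 18.8%, against 2.03% of all genes with a window. The CRE half-site TGACG, searched on both strands and contained in every full CRE, occurred in 24 of the 32 genes (75.0%), against 23.0% of all genes. CArG boxes were found in Egr2 and Dusp5, against 1.81% of all genes, the AP-1 element TGANTCA in Bdnf and Csrnp1, against 8.97%, and the EGR element GCGTGGGCG, on either strand, in Maff, against 0.707%. A match describes letters in the window and is not evidence of binding. Base composition and the number of windows per gene were not matched in these shares.

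The 250 bases before the start are given 5′ to 3′, in lower case with CRE half-sites, full CREs and CArG boxes in capitals. Arl4d is shown for its full CRE beside a large difference between groups, Npas4, Fos, Junb, Nr4a1 and Homer1 for half-sites in genes that were lower after ligation, Egr2 for a CArG box between half-sites, Dusp1 for a full CRE in a gene lower with 4-PBA, and Pcsk1 for a full CRE in a gene that was higher.
Npas4 (chr19:4989972-4990221 on the minus strand): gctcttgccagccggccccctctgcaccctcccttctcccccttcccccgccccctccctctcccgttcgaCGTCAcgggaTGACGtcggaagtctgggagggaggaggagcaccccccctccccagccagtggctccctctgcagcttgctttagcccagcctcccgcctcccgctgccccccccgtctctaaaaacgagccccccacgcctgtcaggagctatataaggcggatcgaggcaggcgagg
Fos (chr12:85473640-85473889 on the plus strand): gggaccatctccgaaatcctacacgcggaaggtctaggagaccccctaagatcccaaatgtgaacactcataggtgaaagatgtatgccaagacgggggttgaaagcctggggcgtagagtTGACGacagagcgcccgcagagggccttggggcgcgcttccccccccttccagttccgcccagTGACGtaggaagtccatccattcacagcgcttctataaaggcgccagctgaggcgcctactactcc
Junb (chr8:84978749-84978998 on the minus strand): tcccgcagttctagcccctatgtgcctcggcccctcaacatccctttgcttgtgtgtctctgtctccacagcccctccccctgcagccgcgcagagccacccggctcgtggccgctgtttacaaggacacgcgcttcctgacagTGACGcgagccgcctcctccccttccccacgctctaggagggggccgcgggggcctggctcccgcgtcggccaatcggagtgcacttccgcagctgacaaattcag
Nr4a1 (chr15:101266596-101266845 on the plus strand): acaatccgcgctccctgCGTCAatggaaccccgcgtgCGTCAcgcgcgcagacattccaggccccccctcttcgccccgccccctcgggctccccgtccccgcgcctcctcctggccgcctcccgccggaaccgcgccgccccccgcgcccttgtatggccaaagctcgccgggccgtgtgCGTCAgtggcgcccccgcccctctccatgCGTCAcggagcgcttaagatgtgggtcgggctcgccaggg
Egr2 (chr10:67537619-67537868 on the plus strand): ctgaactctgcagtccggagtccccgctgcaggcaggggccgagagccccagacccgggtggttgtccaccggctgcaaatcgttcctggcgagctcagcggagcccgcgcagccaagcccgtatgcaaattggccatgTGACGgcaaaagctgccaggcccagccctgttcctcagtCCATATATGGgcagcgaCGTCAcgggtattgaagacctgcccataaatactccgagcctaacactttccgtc
Arl4d (chr11:101665291-101665540 on the plus strand): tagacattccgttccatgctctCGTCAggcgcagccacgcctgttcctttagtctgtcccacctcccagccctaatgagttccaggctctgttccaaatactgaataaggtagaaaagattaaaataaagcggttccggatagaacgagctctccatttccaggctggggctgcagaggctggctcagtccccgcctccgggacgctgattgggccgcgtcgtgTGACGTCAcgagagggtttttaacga
Homer1 (chr13:93303507-93303756 on the plus strand): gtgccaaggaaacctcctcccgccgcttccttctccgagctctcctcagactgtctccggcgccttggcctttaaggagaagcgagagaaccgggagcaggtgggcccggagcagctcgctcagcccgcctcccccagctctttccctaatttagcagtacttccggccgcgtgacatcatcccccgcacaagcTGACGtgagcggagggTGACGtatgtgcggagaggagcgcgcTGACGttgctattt
Dusp1 (chr17:26508473-26508722 on the minus strand): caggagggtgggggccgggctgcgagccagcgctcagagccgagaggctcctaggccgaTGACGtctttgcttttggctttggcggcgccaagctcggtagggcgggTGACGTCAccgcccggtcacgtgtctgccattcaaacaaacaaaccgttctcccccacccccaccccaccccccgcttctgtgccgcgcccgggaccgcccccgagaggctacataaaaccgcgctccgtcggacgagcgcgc
Pcsk1 (chr13:75089607-75089856 on the plus strand): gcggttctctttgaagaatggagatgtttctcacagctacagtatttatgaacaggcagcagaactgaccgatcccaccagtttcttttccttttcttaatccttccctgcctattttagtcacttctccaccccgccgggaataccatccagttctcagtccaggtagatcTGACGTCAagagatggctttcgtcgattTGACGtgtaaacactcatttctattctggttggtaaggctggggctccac

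Libraries held 18100739 to 25091498 counts. A floor of 3 counts corresponded to 0.114 to 0.163 CPM (counts per 1e6 counts of the library, on sizes scaled by TMM), and the lowest member count in any library was 4 (Atf3). The labels name the tissue as brain and the series description as cortex, and the summed levels of marker genes moved with the groups. The 15 cortical excitatory neuron markers summed to 2658 to 2802 CPM in CVST libraries, 971 to 2221 CPM in CVST+Ligation libraries and 1048 to 1334 CPM in 4-PBA libraries, and 6 had an unadjusted p below 0.05 and were lower in CVST+Ligation than in CVST, against 4.18% of all genes tested, and 1 was higher, against 5.47%. By the same rule 7 were lower in 4-PBA than in CVST, against 7.33%, and 0 higher, against 8.07%. The 11 striatal neuron markers summed to 472 to 1262, 166 to 251 and 147 to 713 CPM. The 11 midbrain dopamine neuron markers went the other way, at 54.0 to 101, 301 to 521 and 382 to 445 CPM, with 5 of the 11 under 3 counts in all CVST libraries and 0 in the other groups. The 10 pan-neuronal markers summed to 5017 to 6483, 5357 to 5996 and 4654 to 6588 CPM. CVST+Ligation 2 stood apart by its cerebellar neuron markers, at 1174 CPM against 29.7 to 77.0 CPM elsewhere, and CVST 2 by low levels of most members, so results that rest on them are also given without them. In bulk RNA, fewer cells of a type and less RNA per cell cannot be told apart, and the part of tissue composition in the differences below was not tested beyond the values given beside them.

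Of the 42 members, 16 were called lower and 1 higher in CVST+Ligation than in CVST. The call is an unadjusted p below 0.05 in edgeR's quasi-likelihood test, and the members called lower were 38.1% of the list, against 4.18% of all genes tested. The 1 called higher stood against 5.47% of all genes, and the 17 called in either direction against 9.64%. The log2 fold change was below 0 for 37 of 42 members, against 49.7% of genes, and its median was -0.70 against 0.00 for all genes. No member passed after Benjamini-Hochberg adjustment over all 14746 genes with edgeR, where the called members had adjusted p from 0.166 to 0.510 and 3 genes passed in all (0.0203%). DESeq2 gave adjusted p below 0.05 for 7 members (Egr1, Arc, Per1, Npas4, Nr4a1, Junb and Arl4d), with 264 genes passing in all, and limma on log2(FPKM + 1) or log2(FPKM + 0.1) for 0, with 3 and 13 genes passing. With edgeR 1 member (Nr4a1) passed without CVST 2, with 2 genes in all, and without both CVST 2 and CVST+Ligation 2, with 7 genes. The groups did not overlap and CVST+Ligation was lower for 8 members, against 7.21% of all genes, and higher for 1, against 6.61%. By role, 4 of 4 EGR factors were called lower, 3 of 7 AP-1 and bZIP factors, 3 of 8 other transcription factors, 3 of 13 feedback regulators and 3 of 10 effectors.

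The heat map of all 42 genes gives each library's level relative to the gene's own mean, and most of the high values sit in CVST 1 and CVST 3.

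**Figure D1:**
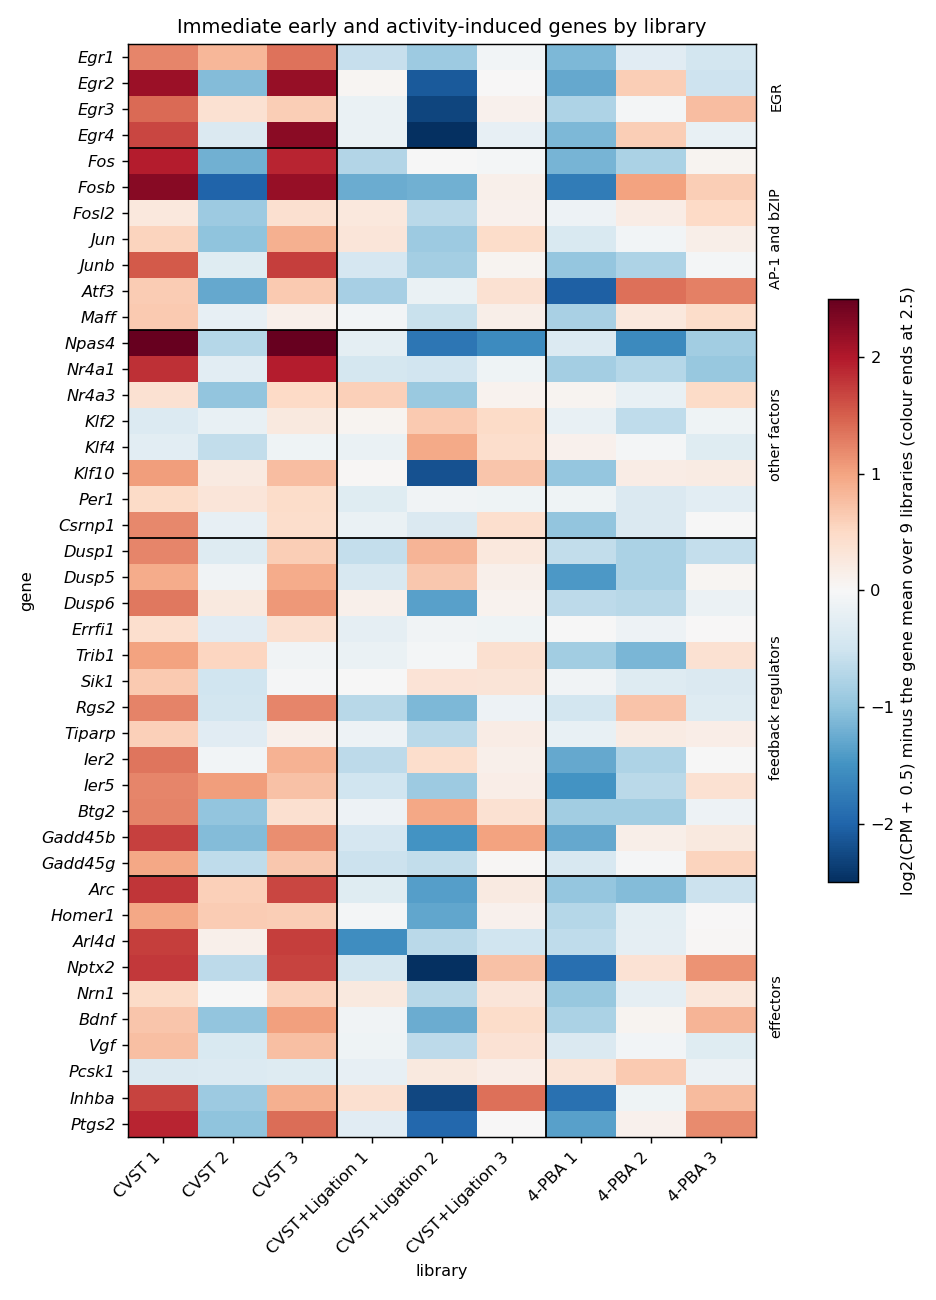
Each row is a gene, grouped by role, and each column a library. Colour is log2(CPM + 0.5) minus the gene's mean over the 9 libraries, red above and blue below. CVST 2 is the lowest of the 3 CVST libraries for 37 of the 42 genes.

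The EGR factors are zinc finger proteins that bind GC-rich elements in promoters of plasticity genes. Egr1 (also Zif268), the family member with the highest level per coding length, was measured at 451, 342 and 495 CPM in CVST 1 to 3, at 129, 103 and 184 CPM in CVST+Ligation 1 to 3 and at 88.3, 159 and 140.0 CPM in 4-PBA 1 to 3. All CVST libraries lay above all 6 ligated ones, and the ligated groups overlapped. Egr1 was 3.10-fold lower in CVST+Ligation than in CVST (log2 fold change -1.63, SE 0.27, unadjusted p = 0.000163, adjusted p = 0.166). With 4-PBA it was 3.32-fold lower than in CVST (log2 fold change -1.73, SE 0.27, unadjusted p = 0.000105, adjusted p = 0.0518), and both p were the smallest of any member. Egr3, which takes part in muscle spindle development and in cortical plasticity, was at 90.9, 43.9 and 52.0, then at 29.8, 6.44 and 36.2 and with 4-PBA at 19.5, 32.6 and 58.1 CPM. Its CVST libraries lay above the CVST+Ligation libraries, but not above 4-PBA 3 (log2 fold change -1.36, SE 0.59, unadjusted p = 0.0454, adjusted p = 0.510 in CVST+Ligation against CVST). Egr2 (Krox20), also a regulator of myelination in Schwann cells, was at 30.5, 2.84 and 31.4 CPM in CVST, 6.74, 1.13 and 6.55 CPM in CVST+Ligation and 2.38, 10.3 and 4.42 CPM with 4-PBA. Its CVST 2 value fell among the ligated libraries while CVST 1 and 3 were the highest of all 9 (log2 fold change -2.16, SE 0.91, unadjusted p = 0.0395, adjusted p = 0.495 in CVST+Ligation against CVST). Egr4 was at 37.9, 8.91 and 57.0 CPM, 10.3, 1.60 and 9.89 CPM and 5.04, 18.0 and 10.1 CPM in the same order, again with CVST 2 inside the range of the ligated libraries (log2 fold change -2.24, SE 0.79, unadjusted p = 0.0186, adjusted p = 0.417). Egr2, Egr3 and Egr4 missed the threshold in 4-PBA against CVST, with unadjusted p of 0.0598, 0.224 and 0.0611. Egr2 and Egr4 were called lower there without CVST 2 and without 4-PBA 2, and Egr4 also with only the groups compared. The calls of these 3 genes in CVST+Ligation depended on single libraries. Leaving out any 1 library of the groups compared other than CVST 2 ended the call of Egr2 (unadjusted p up to 0.110), Egr3 lost it without CVST 1 (unadjusted p = 0.161), CVST 3 (unadjusted p = 0.0596), CVST+Ligation 1 (unadjusted p = 0.0609) or CVST+Ligation 2 (unadjusted p = 0.0750) or both CVST 2 and CVST+Ligation 2 (unadjusted p = 0.0503), and Egr4 without CVST 3 (unadjusted p = 0.0758).

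AP-1 is a dimer of a Fos and a Jun protein. Fos, the most used marker of recently active neurons, was at 218, 24.1 and 210.5 CPM in CVST, 33.3, 55.2 and 54.2 CPM in CVST+Ligation and 24.7, 32.1 and 58.9 CPM with 4-PBA. CVST 1 and 3 were several times above every ligated library, and CVST 2 was below all of them. The group difference was log2 fold change -1.66, SE 0.66, unadjusted p = 0.0324, adjusted p = 0.468 for CVST+Ligation against CVST and log2 fold change -1.96, SE 0.67, unadjusted p = 0.0159, adjusted p = 0.209 for 4-PBA against CVST. Fosb, whose truncated protein accumulates on repeated stimulation, showed the same split of the controls, with 79.0, 3.55 and 73.1, 6.41, 6.54 and 17.2 and 4.33, 32.4 and 24.6 CPM in the groups in that order. Its CVST 2 value was the lowest of all 9 libraries (log2 fold change -2.37, SE 1.01, unadjusted p = 0.0416, adjusted p = 0.5004 in CVST+Ligation against CVST, and unadjusted p = 0.199 in 4-PBA against CVST). Without CVST 2, Fosb was called lower in 4-PBA against CVST as well. Junb, which pairs with Fos proteins and restrains the action of Jun, was at 173, 48.2 and 198 CPM, 44.1, 32.7 and 62.4 CPM and 30.2, 34.5 and 57.5 CPM. CVST 2 lay inside the range of the ligated libraries, and Junb was called lower in both ligated groups. Junb in CVST+Ligation against CVST had a log2 fold change of -1.59, SE 0.48, unadjusted p = 0.00844, adjusted p = 0.359. Junb in 4-PBA against CVST had a log2 fold change of -1.78, SE 0.48, unadjusted p = 0.00466, adjusted p = 0.133. Leaving out any 1 library of the groups compared other than CVST 2 ended the call of Fos in CVST+Ligation (unadjusted p up to 0.109), and in 4-PBA against CVST its call was lost without CVST 1 (unadjusted p = 0.0594), CVST 3 (unadjusted p = 0.0552) or 4-PBA 1 (unadjusted p = 0.0581). Fosb lost its call without CVST 1 (unadjusted p = 0.116), CVST 3 (unadjusted p = 0.104), CVST+Ligation 1 (unadjusted p = 0.113) or CVST+Ligation 2 (unadjusted p = 0.106), and without CVST+Ligation 3 its log2 fold change was -3.00 and still called. In CVST+Ligation against CVST, Fos, Fosb and Egr2 also lost their calls with the replicate number as a block (unadjusted p = 0.0798, 0.0680 and 0.0632) and with limma on log2(FPKM + 1) (unadjusted p = 0.162, 0.185 and 0.0819) or log2(FPKM + 0.1). Fos lost its call in 4-PBA against CVST with limma at both pseudocounts as well. Junb was called under every alternative tried in CVST+Ligation against CVST. Jun itself, which is also induced by axonal injury, was at 110.1, 36.6 and 139 CPM in CVST and 91.3, 39.6 and 103 CPM in CVST+Ligation, with overlap and no call (log2 fold change -0.29, 95% interval -1.33 to 0.75). Fosl2, Atf3, a stress-responsive factor of injured neurons, and Maff, a small Maf protein, were not called in any comparison of the main fit, with log2 fold changes in CVST+Ligation against CVST of -0.07, -0.43 and -0.51. Atf3 was called higher in 4-PBA against CVST+Ligation without 4-PBA 1. Atf3 and Maff had fewer than 10 counts in at least 1 library.

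Npas4 is a bHLH-PAS factor induced by calcium influx with little response to growth factors, and it organises inhibitory synapses on active neurons. It was at 167, 7.89 and 157 CPM in CVST, 11.1, 3.45 and 4.13 CPM in CVST+Ligation and 10.4, 4.08 and 7.01 CPM with 4-PBA, the largest fold change of any member. CVST 1 and 3 were more than an order of magnitude above every ligated library, and CVST 2 was below CVST+Ligation 1 and 4-PBA 1. The difference was 17.7-fold in CVST+Ligation against CVST (log2 fold change -4.14, SE 0.97, unadjusted p = 0.00185, adjusted p = 0.286) and 15.5-fold in 4-PBA against CVST (log2 fold change -3.95, SE 0.96, unadjusted p = 0.00234, adjusted p = 0.107). Without CVST 2 the log2 fold changes of Npas4 were -4.69 and -4.49. Over all libraries left out in turn they ran from -4.87 (without CVST+Ligation 1) to -3.72 (without CVST 1) and from -4.49 to -3.52 (without CVST 1), and with limma on log2(FPKM + 1) they were -2.99 and -2.76. Npas4 was called each time. Nr4a1 (Nur77), an orphan nuclear receptor, was at 287, 67.5 and 317, 59.6, 57.8 and 75.0 and 44.4, 48.9 and 41.4 CPM. CVST 2 lay below CVST+Ligation 3 and above the other CVST+Ligation libraries, and all 4-PBA libraries lay below every other library. It was called lower in CVST+Ligation (log2 fold change -1.80, SE 0.45, unadjusted p = 0.00283, adjusted p = 0.294) and in 4-PBA (log2 fold change -2.32, SE 0.46, unadjusted p = 0.000598, adjusted p = 0.0621), each against CVST. Per1, a clock gene whose promoter also answers to CREB, was tight within groups, at 113, 101 and 111 CPM in CVST, 65.9, 76.1 and 74.6 CPM in CVST+Ligation and 74.7, 62.5 and 67.7 CPM with 4-PBA. No CVST library overlapped a ligated one, and the change was small beside that of Egr1. Per1 in CVST+Ligation against CVST had a log2 fold change of -0.58, SE 0.12, unadjusted p = 0.000815, adjusted p = 0.250. Per1 in 4-PBA against CVST had a log2 fold change of -0.66, SE 0.12, unadjusted p = 0.000323, adjusted p = 0.0545.

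Among the other inducible factors, Klf4, a Kruppel-like factor of endothelium and glia, was the single member called higher in CVST+Ligation, at 4.97, 3.77 and 5.53 CPM in CVST, 5.33, 12.1 and 8.40 CPM in CVST+Ligation and 6.56, 5.81 and 4.80 CPM with 4-PBA. The CVST and CVST+Ligation values overlapped, and the call was lost without CVST 2 (unadjusted p = 0.0779) and without CVST+Ligation 2 (unadjusted p = 0.105), which held its highest value (log2 fold change 0.85, SE 0.32, unadjusted p = 0.0232, adjusted p = 0.431 with all libraries). The 7 endothelial markers summed to 195 to 328 CPM in CVST, 241 to 376 CPM in CVST+Ligation and 275 to 316 CPM with 4-PBA. Their highest sum was also in CVST+Ligation 2, and the next was in CVST 2 (328 CPM), where Klf4 was lowest. In CVST+Ligation against CVST 0 of the 7 were called lower and 0 higher, against 4.18% and 5.47% of all genes. The part of these markers in the Klf4 result was not tested. Klf2, a factor of endothelial quiescence, was at 6.03, 6.78 and 9.38 CPM, 8.18, 12.6 and 11.1 CPM and 6.83, 4.84 and 7.16 CPM. Every 4-PBA library lay below every CVST+Ligation library, and Klf2 was lower with 4-PBA than in CVST+Ligation (log2 fold change -0.76, SE 0.26, unadjusted p = 0.0176, adjusted p = 0.9998), though not without CVST+Ligation 2 (unadjusted p = 0.0627) or 4-PBA 2 (unadjusted p = 0.0680). Csrnp1, an AXIN1-induced nuclear protein, was at 33.1, 12.3 and 19.5 CPM, 12.5, 11.0 and 19.2 CPM and 6.94, 10.9 and 14.1 CPM, with overlap between all groups. It was called lower in 4-PBA than in CVST (log2 fold change -1.02, SE 0.39, unadjusted p = 0.0275, adjusted p = 0.255), and lost the call without CVST 1, its highest value (unadjusted p = 0.163), 4-PBA 1 (unadjusted p = 0.0993) or 4-PBA 2 (unadjusted p = 0.0581). Nr4a3 and Klf10 were not called in any comparison of the main fit, and Klf10 was called lower in 4-PBA against CVST with only the groups compared. Nr4a3, from the same receptor family as Nr4a1, had a log2 fold change of -0.06 (95% interval -1.06 to 0.95) in CVST+Ligation against CVST, and Klf10 one of -0.79 (95% interval -2.12 to 0.54).

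The dot plots show the single mice for 12 of the genes, and they make the difference between Egr1, Per1 or Homer1, where the controls agree, and Fos, Npas4 or Nr4a1, where they do not, visible at once.

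**Figure D2:**
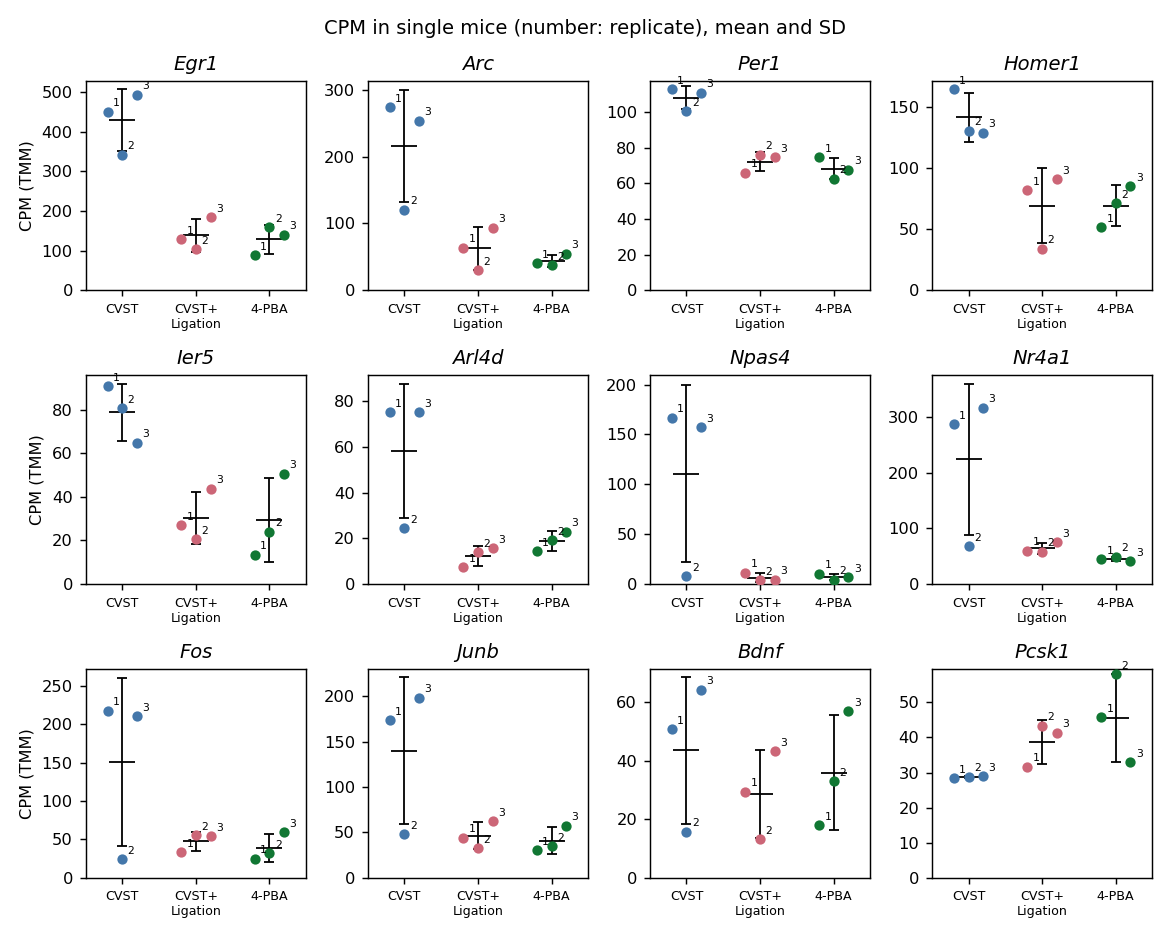
Each panel is 1 gene, with CPM on the y axis from 0 and the 3 groups on the x axis. Points are single mice with their replicate number, the horizontal line is the mean and the bar 1 SD of 3 mice. CVST 2 lies with the ligated mice for Npas4, Nr4a1, Fos and Junb and above all of them for Egr1, Per1, Homer1, Ier5, Arc and Arl4d.

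The feedback regulators switch off the kinases that drive the response or act on growth and survival. Dusp6, a cytoplasmic phosphatase of ERK, was at 138, 65.2 and 118 CPM in CVST, 60.2, 21.3 and 58.7 CPM in CVST+Ligation and 34.7, 34.0 and 49.7 CPM with 4-PBA. All CVST libraries were above all ligated ones, by little in the case of CVST 2, and Dusp6 was called lower in both. Dusp6 in CVST+Ligation against CVST had a log2 fold change of -1.20, SE 0.40, unadjusted p = 0.0138, adjusted p = 0.397. Dusp6 in 4-PBA against CVST had a log2 fold change of -1.44, SE 0.40, unadjusted p = 0.00521, adjusted p = 0.135. Ier5, a nuclear protein that acts on heat shock factor 1, was at 90.9, 80.9 and 64.9 CPM, 27.1, 20.5 and 43.7 CPM and 13.4, 24.1 and 50.7 CPM. Its CVST values were close to each other, with CVST 3 the lowest, and all lay above the ligated libraries. Ier5 in CVST+Ligation against CVST had a log2 fold change of -1.37, SE 0.44, unadjusted p = 0.0116, adjusted p = 0.381, and lost its call without both CVST 2 and CVST+Ligation 2 (unadjusted p = 0.0752). Ier5 in 4-PBA against CVST had a log2 fold change of -1.42, SE 0.44, unadjusted p = 0.00973, adjusted p = 0.172, and without 4-PBA 3 the log2 fold change was -2.07. Rgs2, which speeds the shut-off of Gq signals, was at 235, 71.6 and 232 CPM, 60.8, 44.8 and 90.6 CPM and 71.9, 161 and 78.7 CPM. CVST 2 fell within the ligated range and 4-PBA 2 was the highest ligated library. Rgs2 was called lower in CVST+Ligation (log2 fold change -1.46, SE 0.48, unadjusted p = 0.0131, adjusted p = 0.396) and not in 4-PBA (unadjusted p = 0.126), each against CVST. It was called lower in 4-PBA against CVST without CVST 2, without 4-PBA 2 and without both CVST 2 and CVST+Ligation 2. In 4-PBA against CVST+Ligation, the test of the difference between the ligated groups, Rgs2 was not called (log2 fold change 0.67, SE 0.47, unadjusted p = 0.189). Dusp6 lost its call in CVST+Ligation without CVST 1 (unadjusted p = 0.0545).

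A further 3 regulators were called in 4-PBA against CVST and not in CVST+Ligation against CVST, though Ier2 was called there without CVST 2. Dusp1, a nuclear phosphatase of p38, JNK and ERK, was at 86.9, 29.3 and 56.3 CPM in CVST, 24.1, 66.4 and 44.1 CPM in CVST+Ligation and 23.8, 20.997 and 24.0 CPM with 4-PBA. The 4-PBA libraries were alike and lay below all the others, the nearest being CVST+Ligation 1 (log2 fold change -1.32, SE 0.42, unadjusted p = 0.0104, adjusted p = 0.180 against CVST, and log2 fold change -0.97, SE 0.41, unadjusted p = 0.0430, adjusted p = 0.9998 against CVST+Ligation). The second of these calls was lost on leaving out either CVST+Ligation 2 (unadjusted p = 0.199) or CVST+Ligation 3 (unadjusted p = 0.0729), or any 4-PBA library, with the replicate block (unadjusted p = 0.0725) and with limma on log2(FPKM + 1) (unadjusted p = 0.0841) or log2(FPKM + 0.1). Dusp5, a nuclear phosphatase of ERK, was at 27.4, 13.3 and 27.4 CPM, 10.6, 23.0 and 15.6 CPM and 4.93, 7.95 and 14.7 CPM, and Ier2, a nuclear early response protein, at 26.3, 9.67 and 19.0 CPM, 6.32, 14.1 and 11.2 CPM and 3.90, 5.72 and 10.1 CPM. For both, the highest 4-PBA library was above CVST 2 (Dusp5 log2 fold change -1.30, SE 0.44, unadjusted p = 0.0159, adjusted p = 0.208, and Ier2 log2 fold change -1.47, SE 0.46, unadjusted p = 0.0103, adjusted p = 0.178, in 4-PBA against CVST). Without CVST 1 all 3 calls were lost, at unadjusted p = 0.0556 for Dusp1, 0.0543 for Dusp5 and 0.0508 for Ier2, and Dusp5 also lost its call without CVST 3 (unadjusted p = 0.0510) or 4-PBA 1 (unadjusted p = 0.0556). In 4-PBA against CVST+Ligation, the test of the difference between the ligated groups, Dusp5 and Ier2 had log2 fold changes of -0.83 (95% interval -1.82 to 0.16) and -0.67 (95% interval -1.69 to 0.36). The other 7 regulators (Errfi1, Trib1, Sik1, Tiparp, Btg2, Gadd45b and Gadd45g) were not called in any comparison of the main fit, and their log2 fold changes in CVST+Ligation against CVST ran from -0.96 (Gadd45b) to 0.10 (Sik1). Trib1 was called lower in 4-PBA against CVST with DESeq2, no filter, the replicate block, limma, the length correction, and without CVST 3 or 4-PBA 3. DESeq2 also called Btg2 lower in both 4-PBA comparisons and Gadd45g lower in CVST+Ligation against CVST. Errfi1, Sik1 and Gadd45b were called in some fits that left out libraries.

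Of the effectors, Arc, a capsid-like protein that drives removal of AMPA receptors from synapses, was at 275, 120.5 and 254 CPM in CVST, 63.9, 30.1 and 93.5 CPM in CVST+Ligation and 40.3, 37.2 and 54.6 CPM with 4-PBA. CVST 2 was well below CVST 1 and 3 but above all ligated libraries, and Arc was called lower in both. Arc in CVST+Ligation against CVST had a log2 fold change of -1.79, SE 0.42, unadjusted p = 0.00174, adjusted p = 0.283. Arc in 4-PBA against CVST had a log2 fold change of -2.30, SE 0.42, unadjusted p = 0.000349, adjusted p = 0.0545. Homer1, which makes both a constitutive scaffold of the postsynaptic density and a short activity-induced form, was at 165, 131 and 129 CPM, 82.0, 33.9 and 91.1 CPM and 51.4, 71.2 and 85.0 CPM. All CVST libraries were above all ligated ones. Homer1 in CVST+Ligation against CVST had a log2 fold change of -1.04, SE 0.33, unadjusted p = 0.0115, adjusted p = 0.381. Homer1 in 4-PBA against CVST had a log2 fold change of -1.03, SE 0.33, unadjusted p = 0.0117, adjusted p = 0.187. The forms of Homer1 cannot be told apart in these counts per gene. Its call with 4-PBA was lost without 4-PBA 1 (unadjusted p = 0.0501). Arl4d, a small GTPase of the ARF family, was at 75.2, 24.4 and 75.2 CPM, 7.36, 13.9 and 15.7 CPM and 14.3, 19.2 and 22.9 CPM. CVST 2 was just above 4-PBA 3, the highest ligated library. Arl4d in CVST+Ligation against CVST had a log2 fold change of -2.24, SE 0.44, unadjusted p = 0.000558, adjusted p = 0.250. Arl4d in 4-PBA against CVST had a log2 fold change of -1.63, SE 0.43, unadjusted p = 0.00395, adjusted p = 0.124.

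Pcsk1, the convertase that cleaves prohormones and neuropeptide precursors, was the single member called higher in 4-PBA than in CVST, at 28.4, 28.8 and 29.0 CPM in CVST, 31.6, 43.4 and 41.4 CPM in CVST+Ligation and 45.8, 58.1 and 33.0 CPM with 4-PBA. The CVST libraries were nearly equal, CVST 2 included, and all lay below every ligated library. The difference in 4-PBA against CVST was called (log2 fold change 0.67, SE 0.21, unadjusted p = 0.0107, adjusted p = 0.182), and that in CVST+Ligation missed the threshold (log2 fold change 0.43, unadjusted p = 0.0678). The second was called with total counts, with only the groups compared and without CVST+Ligation 1. The 4-PBA call was lost without 4-PBA 2 (unadjusted p = 0.0552), its highest value. Of 10 hypothalamic neuron markers 8 passed the expression filter and were summed, and their sums were also higher with 4-PBA. They were at 13.3, 5.10 and 42.9 CPM in CVST, 18.6, 12.6 and 56.7 CPM in CVST+Ligation and 300.1, 512 and 581 CPM with 4-PBA. Sums of midbrain dopamine and thalamic neuron markers were higher in both ligated groups than in CVST. The part of these lists in the Pcsk1 result was not tested. Bdnf, the neurotrophin that active neurons release, was at 50.8, 15.7 and 64.3 CPM, 29.4, 13.1 and 43.3 CPM and 17.9, 33.1 and 56.9 CPM. All its groups overlapped, and its log2 fold change in CVST+Ligation against CVST was -0.61 with a 95% interval of -1.92 to 0.71. Nptx2, a secreted pentraxin that clusters AMPA receptors, Nrn1, a GPI-anchored neuritin, Vgf, a neuropeptide precursor, Inhba, the activin A subunit, and Ptgs2, cyclooxygenase 2, were not called in any comparison of the main fit, with log2 fold changes in CVST+Ligation against CVST of -1.52, -0.37, -0.54, -0.48 and -1.75. Vgf was called lower in 4-PBA against CVST with DESeq2, no filter, only the groups compared, the length correction and without CVST 2. Ptgs2 was called lower in CVST+Ligation against CVST with only the groups compared, the replicate block and without CVST 2. Nptx2 was called there without CVST+Ligation 3, and Nrn1 in 4-PBA against CVST without 4-PBA 3.

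In 4-PBA against CVST the same test called 15 of 42 members lower (35.7%), against 7.33% of all genes, and 1 higher (Pcsk1), against 8.07%, which makes 16 in either direction, against 15.4%. The log2 fold change was below 0 for 37 members, against 51.1% of genes, and its median was -0.97 against -0.01 for all genes. The groups did not overlap and 4-PBA was lower for 10 members, against 11.5% of genes, and higher for 1, against 12.3%. By role 1 of 4 EGR factors, 2 of 7 AP-1 and bZIP factors, 4 of 8 other transcription factors, 5 of 13 feedback regulators and 3 of 10 effectors were called lower. After adjustment with edgeR's quasi-likelihood test 0 members were below 0.05, against 0.122% of all genes, and 4 were below 0.1 (Egr1, Per1, Arc and Nr4a1, with adjusted p = 0.0518, 0.0545, 0.0545 and 0.0621), against 1.97% of all genes, and DESeq2 put 11 members below 0.05, with 855 of all genes. Limma put 1 member (Egr1) below 0.05 with a pseudocount of 1, with 87 genes in all, and 2 (Arc and Egr1) with 0.1, with 134 genes. Some edgeR alternatives also passed members, namely Arc and Egr1 without a filter (112 genes in all) or with only the groups compared (234 genes), Per1, Arc and Egr1 with the length correction (142 genes), Arc with the replicate block (25 genes), Nr4a1 without CVST 2 (3 genes) and 11 members without CVST 2 and CVST+Ligation 2 (295 genes). This comparison and the one before it share the CVST libraries, so they are not separate evidence about the members.

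Between the ligated groups few members were called. The test called 2 of 42 lower in 4-PBA than in CVST+Ligation (Klf2 and Dusp1, 4.76%), against 1.42% of all genes, and 0 higher, against 1.81%, and 23 of 42 log2 fold changes were below 0, against 53% of genes, with a median of -0.06. After adjustment the smallest p of a member was 0.9998, and 0 of the 14746 genes passed with edgeR's quasi-likelihood test, against 476 at an unadjusted p (3.23%), of which 2 were members. DESeq2 called 3 members at an unadjusted p, against 3.88% of genes, and 0 after adjustment, with 22 genes passing. Limma called 1 at an unadjusted p with either pseudocount, against 2.98% and 2.85% of genes, and 0 after adjustment, with 2 and 0 genes passing. The intervals were wide. For Egr1 the 95% interval of the log2 fold change was -0.70 to 0.50, for Per1 -0.35 to 0.19, for Arc -1.42 to 0.41, for Fos -1.76 to 1.16 and for Npas4 -1.81 to 2.19. For Nr4a1, Klf2, Dusp1, Sik1 and Btg2 every 4-PBA library lay below every CVST+Ligation library, which is 5 of 42 members, against 4.22% of all genes, and for 0 members above, against 3.51%.

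The forest plot sets the 3 comparisons of each gene side by side.

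**Figure D3:**
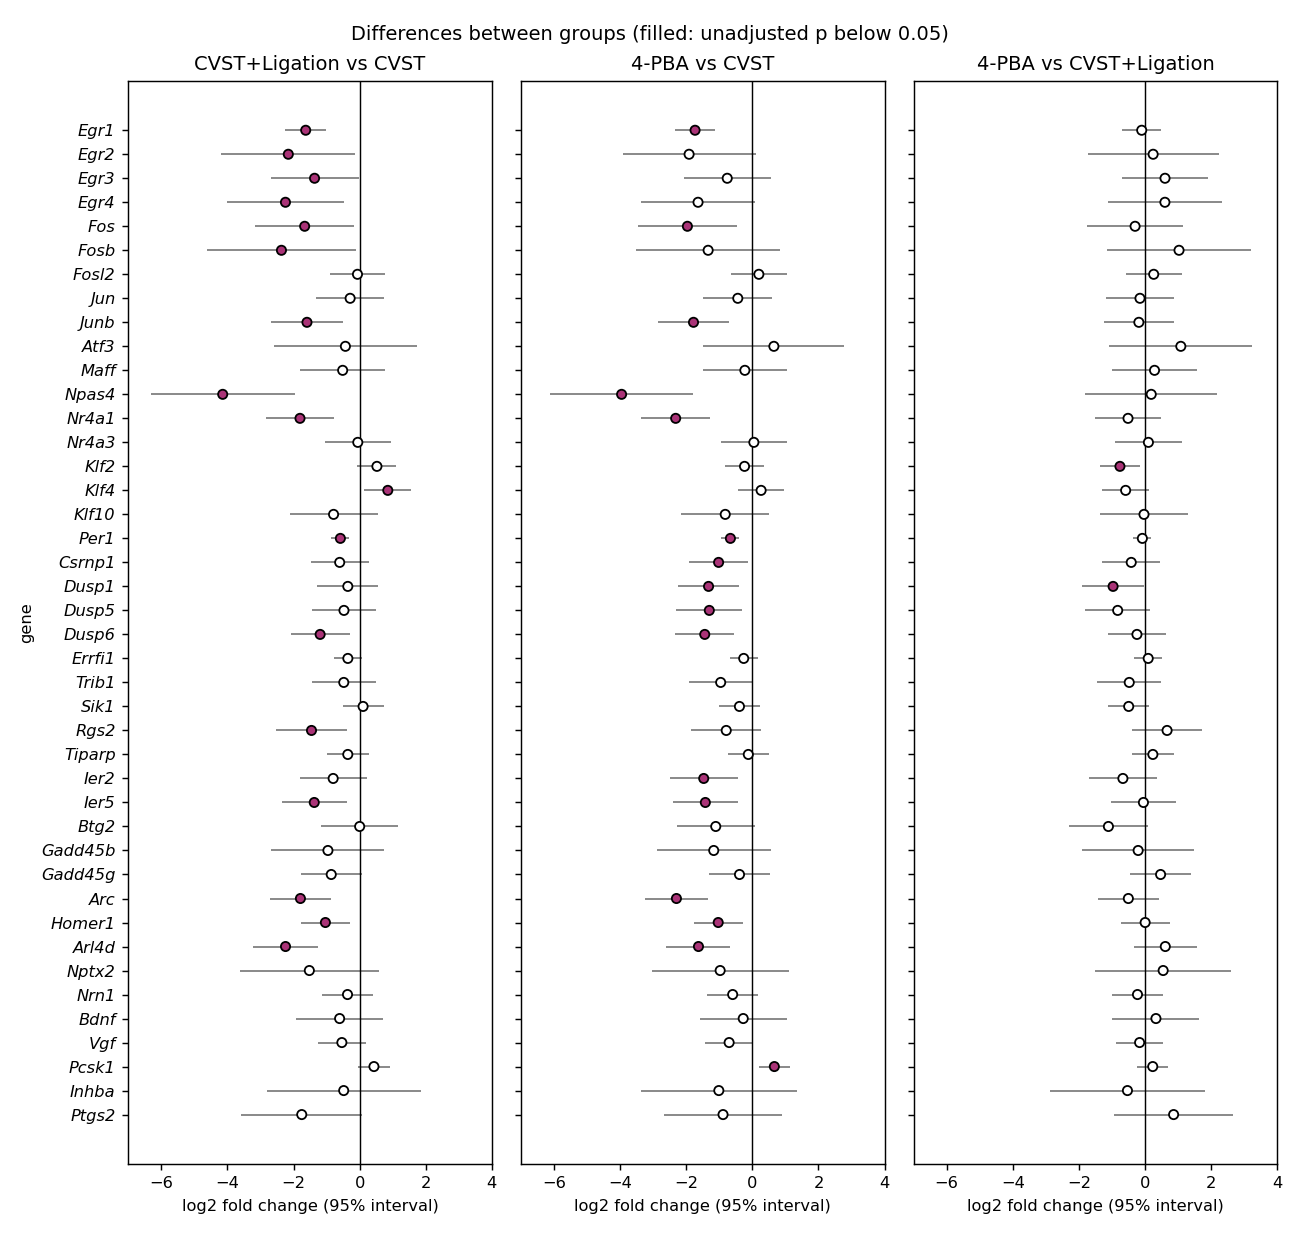
Points are log2 fold changes and bars 95% intervals from edgeR's fit for the 42 genes, in CVST+Ligation against CVST, 4-PBA against CVST and 4-PBA against CVST+Ligation. Filled points have an unadjusted p below 0.05. Most filled points of the left and middle panels lie below 0, and 2 genes (Klf2 and Dusp1) are filled in the right panel.

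The CVST controls disagreed with each other over these genes. CVST 2 was the lowest of the 3 for 37 of 42 members, against 27.9% of all genes, and the highest for 0, against 28.2%. The mean of CVST 1 and 3 was at least 2-fold above CVST 2 for 26 members, against 4.44% of genes, and at least 5-fold for 10 (Egr2, Egr4, Fos, Fosb, Atf3, Npas4, Gadd45b, Nptx2, Inhba and Ptgs2), against 1.17%. CVST 1 and 3, but not CVST 2, lay above all 6 ligated libraries for 20 members, against 4.17% of genes. All 3 CVST libraries lay above all 6 ligated ones for 7 members (Egr1, Per1, Dusp6, Ier5, Arc, Homer1 and Arl4d), against 4.07% of genes, and below them for 1 (Pcsk1), against 4.41%. In 11 members, Fos, Fosb, Jun and Nr4a3 among them, CVST 2 was below all 6 ligated libraries, against 16.1% of genes, and in 23 it lay within their range, against 67.8% of genes. The highest library of a group was at least 2-fold above the lowest for 31 members in CVST, 28 in CVST+Ligation and 21 with 4-PBA, against 22.7%, 23.5% and 16.6% of genes. The median SD of log2 CPM within a group was 0.71 for members in CVST, 0.56 in CVST+Ligation and 0.49 with 4-PBA, against 0.27, 0.25 and 0.19 for all genes.

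Without CVST 2 the test called 22 members lower and 0 higher in CVST+Ligation than in CVST, against 3.48% and 5.05% of all genes, and Nr4a1 reached an adjusted p of 0.00495. Against CVST, 4-PBA then had 24 called lower and 1 higher, against 6.23% and 7.92%. CVST 2 was singled out for its low levels of these same members. More calls among them are therefore partly fixed by that choice and are not separate support for a difference. Over all genes, log2 CPM of CVST 1 and CVST 2 correlated at r 0.981, against 0.967 for each of them with CVST 3. Without CVST 1 or without CVST 3, 12 and 13 members were called in CVST+Ligation against CVST, against 8.42% and 10.2% of all genes. In CVST+Ligation against CVST, 9 members (Egr1, Arc, Per1, Homer1, Arl4d, Npas4, Nr4a1, Junb and Rgs2) were called under all 18 alternatives, while Fos and Egr2 kept their call in 1 of the 6 fits that left out a library, and Fosb and Egr3 in 2. The share of all genes called under all 18 was not counted, so these 9 cannot be set against it.

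The members' levels were set beside the marker sums of the same library. As a percentage of the CVST mean, the median member was at 129, 51.8 and 115 in CVST 1 to 3, at 52.0, 39.1 and 74.5 in CVST+Ligation 1 to 3 and at 31.7, 52.4 and 64.9 in 4-PBA 1 to 3. The cortical excitatory neuron sum was at 101, 96.8 and 102 in CVST, so CVST 2 was close to the other controls in this sum, and 39 of 42 members were further down than it. The hippocampal sum of CVST 2 was lower as well, at 62.8 against 117 and 120 in CVST 1 and 3, and its part in the CVST 2 values was not tested. In CVST+Ligation 1 and 3 the cortical sum was at 80.9 and 78.7, and 34 and 22 members were further down, while the striatal neuron sum was at 19.3 and 28.1, and 3 and 2 members were further down than that. In CVST+Ligation 2 and 4-PBA 1 to 3 it was at 35.4, 38.6, 38.2 and 48.6, and 20, 26, 14 and 13 of the 42 members were further down. The striatal sum of the same libraries was at 18.6, 33.6, 79.9 and 16.5, and 11, 23, 34 and 1 members were further down than it. By gene, the median log2 fold change of the cortical markers was -0.58 in CVST+Ligation and -1.12 in 4-PBA, each against CVST. That of the striatal markers was -2.23 and -1.24, and that of the members -0.70 and -0.97. The part of these lists in the members' levels was not tested. Pan-neuronal sums stayed between 79.5 and 113 in all libraries.

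**Figure D4:**
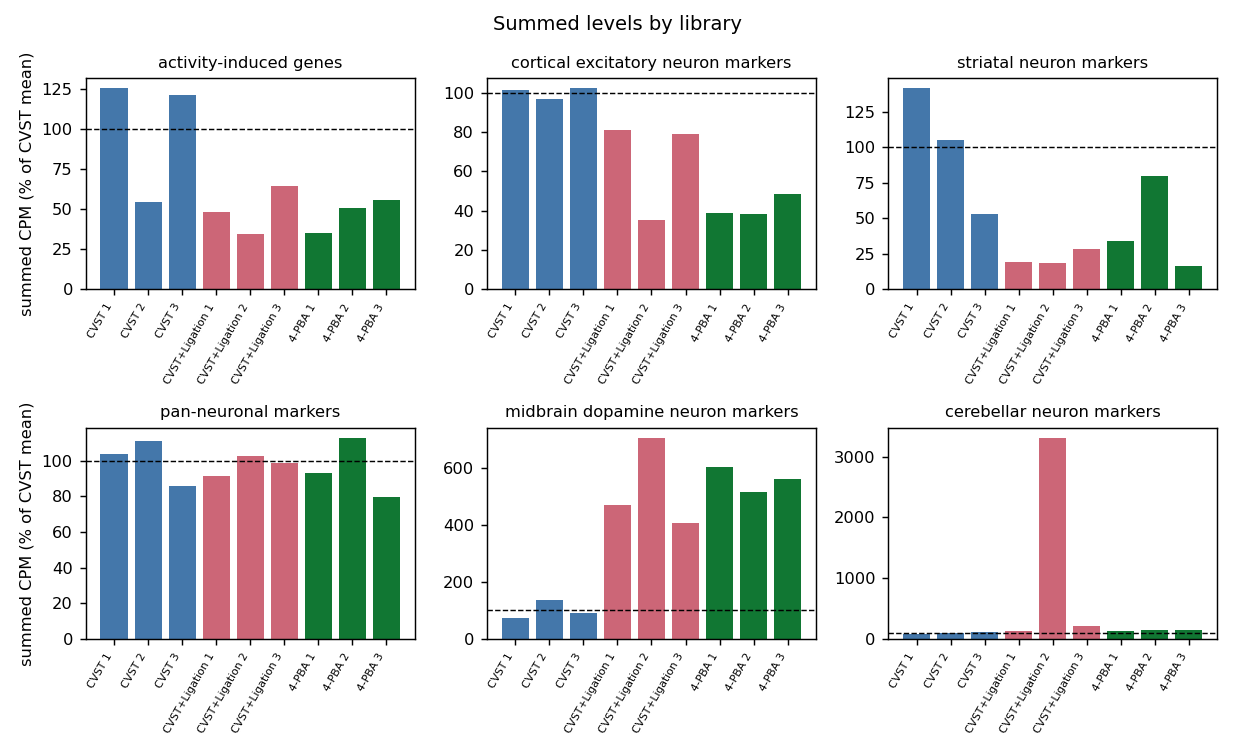
Bars are the summed CPM of a gene list in each library as a percentage of the mean of the 3 CVST libraries (dashed line at 100), for the 42 activity-induced genes and 5 marker lists, each on its own scale. The activity-induced sum is at 54.1 in CVST 2, where the cortical excitatory sum is at 96.8, and the midbrain dopamine sum is at 408 or more in every ligated library.

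In a list of 42 further activity-induced genes, 9 were called lower and 1 higher in CVST+Ligation than in CVST, against 4.18% and 5.47% of all genes, with a median log2 fold change of -0.39. With 4-PBA, 10 were lower and 1 higher than in CVST, against 7.33% and 8.07%. The difference between this list and the members was not tested. The 3 with the smallest p in CVST+Ligation against CVST were Rgs4, Dusp14 and Penk. Rgs4, a shut-off factor of Gi and Gq signals, had a log2 fold change of -1.43, SE 0.45, unadjusted p = 0.0103, adjusted p = 0.374. Dusp14, a phosphatase of MAP kinases, had a log2 fold change of -1.48, SE 0.47, unadjusted p = 0.0116, adjusted p = 0.381. Penk, the enkephalin precursor, had a log2 fold change of -1.88, SE 0.61, unadjusted p = 0.0124, adjusted p = 0.388. Penk is also abundant in striatal neurons. Of the 11 striatal markers 10 were called lower in CVST+Ligation than in CVST, against 4.18% of all genes, and 2 lower and 1 higher in 4-PBA than in CVST, against 7.33% and 8.07%, and their part in the Penk values was not tested. It was at 754, 572 and 629 CPM in CVST, 77.7, 145 and 309 CPM in CVST+Ligation and 284, 713 and 134 CPM with 4-PBA.

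Upstream of the promoters, 49 genes that carry the signal from calcium to the nucleus (channels, kinases, CREB and its coactivators) had 2 lower and 1 higher in CVST+Ligation against CVST, which is near the 4.18% and below the 5.47% of all genes, and a median log2 fold change of -0.06. Among the called genes were Calm2, which encodes a calcium sensor (log2 fold change -0.41, SE 0.16, unadjusted p = 0.0274, adjusted p = 0.447), and the calcium-stimulated adenylyl cyclase Adcy8 (log2 fold change 1.02, SE 0.34, unadjusted p = 0.0133, adjusted p = 0.396). In 4-PBA against CVST 11 of the 49 were lower, against 7.33% of all genes, and 1 higher, against 8.07%. In 4-PBA against CVST+Ligation 5 were lower, against 1.42%, and 0 higher, against 1.81%.

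Per1 also belongs to the circadian clock and responds to glucocorticoids, so lists of both were counted. Of 13 clock genes 2 were lower and 0 higher in CVST+Ligation than in CVST, against 4.18% and 5.47% of all genes. Npas2, a forebrain partner of BMAL1, had a log2 fold change of -1.06, SE 0.34, unadjusted p = 0.0117, adjusted p = 0.381. Nr1d1, which encodes REV-ERB alpha, had a log2 fold change of -0.37, SE 0.16, unadjusted p = 0.0497, adjusted p = 0.516, and Arntl, which encodes BMAL1, came next (unadjusted p = 0.116). Of 14 glucocorticoid-induced genes 1 was lower and 0 higher, against the same 4.18% and 5.47%, with a median log2 fold change of -0.02. The gene called lower was the kinase gene Sgk1 (log2 fold change -0.60, SE 0.22, unadjusted p = 0.0225, adjusted p = 0.428). Tsc22d3 (GILZ) and Hif3a followed, with unadjusted p of 0.0995 and 0.133. Sgk1 was at 143, 141 and 112 CPM in CVST, 65.5, 115 and 81.5 CPM in CVST+Ligation and 97.6, 68.8 and 87.1 CPM with 4-PBA, and it is also among the further activity-induced genes.

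Levels can be compared between genes only per length, and the deposited FPKM values, which are scaled to library size and gene length, are per coding length. In CVST the highest members were Nrn1 at 451 ± 82.4 FPKM (mean ± SD, n = 3), Vgf at 329 ± 122, Egr1 at 261 ± 41.9, Rgs2 at 256 ± 130.3 and Arc at 177 ± 66.1 FPKM. Each gap between neighbours in this order was smaller than the larger of their SDs, apart from that between Nrn1 and Vgf, which about equalled it. Whether the counts cover coding exons only is not known, and if they cover whole exons the order could differ. Nrn1 has 529 coding and 2249 exon bases, and Vgf 1851 and 2973. The lowest were Maff at 2.99 ± 1.21 FPKM and Klf4 at 3.19 ± 0.532 FPKM. The median member stood at 40.7 FPKM in CVST, 20.2 FPKM in CVST+Ligation and 20.6 FPKM with 4-PBA. Npas4 moved furthest in this order, from 44.3 ± 35.7 FPKM in CVST to 2.59 ± 1.77 FPKM in CVST+Ligation and 3.05 ± 1.35 FPKM with 4-PBA.

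The members were also correlated with each other across the 9 libraries. The mean Pearson correlation of a member's log2 CPM with the other 41 was highest for Junb (0.67), Gadd45b (0.67), Vgf (0.66) and Csrnp1 (0.65) and below 0 for Pcsk1 (-0.42), Klf4 (-0.24) and Klf2 (-0.07). These are descriptions over 9 libraries, which also differ in group, in the regional marker sums above and in depth.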

How the data were processed

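RNA of 9 mouse brains was sequenced, and the titles in the labels put 3 libraries into each group. The submitters' processing notes name fastp, HISAT2, StringTie and RSEM, with builds mm10 and GRCm38, and no versions. The authors deposited read counts per gene, unnormalized, for 20731 genes. The program that counted is not given in the sources used here, and overlapping genes may share reads. The authors also deposited FPKM values, which the methods call TPM. For 96.6% of 16796 genes, and 41 of 42 members, the length behind the FPKM equals the merged coding exons of GENCODE M21.

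Counts were analysed with edgeR 4.0.16 in R 4.3.3 (TMM scaling, filterByExpr, quasi-likelihood fit of all 3 groups without covariates, common biological coefficient of variation 0.287). Members were called at an unadjusted p below 0.05, the level the study uses, and Benjamini-Hochberg adjusted p over all 14746 genes tested stand beside it. CPM are on TMM-scaled library sizes, and log2 fold changes carry the standard error and 95% interval of the fit. Intervals and floors cover counting error and the spread between mice only. Values per library are given for each member called in at least 1 comparison and for Fos, Arc, Npas4 and Bdnf, and of each pathway list the 3 genes with the smallest p in CVST+Ligation against CVST are named, save 1 called gene whose values are not reported here. The members and lists were chosen with earlier results of these data known. Simulated counts with known changes were used to test the edgeR fit with each scaling, the replicate block, the length correction and robust estimation. DESeq2 and limma on log2(FPKM + 1) were tested in the same way. Other filters, the fit of only the groups compared, limma on log2(FPKM + 0.1), fits without a library and the descriptive steps were not simulated. Alternatives were other scalings, DESeq2 1.42.0, limma 3.58.1 on log2 FPKM, other filters, a fit of only the groups compared, a replicate block, a length correction, robust estimation and leaving out each library. Leaving out CVST 2 and CVST+Ligation 2 together was added after seeing the data. Plots were drawn with matplotlib 3.10.9.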

Additional observations from a re-analysis of the deposited data

How the results depend on the processing

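The median log2 fold change of the members kept its direction in every alternative for CVST+Ligation against CVST (-1.07 to -0.47) and for 4-PBA against CVST (-1.32 to -0.57), and ran from -0.25 to 0.14 for 4-PBA against CVST+Ligation. In the last comparison 2 members were called, against 5 in a fit of only those groups, 1 with the replicate block, 1 with limma at either pseudocount, 0 to 5 when a library was left out (0 without 4-PBA 2, 1 without CVST+Ligation 2 or 3, 4 without CVST+Ligation 1 and 5 without 4-PBA 3), and 4 without CVST 2 and CVST+Ligation 2. The share of all genes called in that comparison was 3.23%, against 1.72% without 4-PBA 2, 2.25%, 10% and 2.47% without CVST+Ligation 1, 2 or 3, 3.34% and 3.99% without 4-PBA 1 or 3, 3.66% with only those groups, 3.53% with the block and 10.1% without CVST 2 and CVST+Ligation 2. In 4-PBA against CVST 16 members were called, against 11 to 25 when a library was left out, 25 without CVST 2, and 28 without CVST 2 and CVST+Ligation 2, where the share of all genes called was 15.4%, 10.1% to 16.3%, 14.2% and 18.7%. In CVST+Ligation against CVST 17 members were called, against 12 to 22 when a library was left out and 21 without CVST 2 and CVST+Ligation 2, with 9.64%, 8.07% to 11.1% and 6.71% of all genes called. Same-numbered samples of different groups correlated at r -0.06 to 0.33 in their deviations from group means. Best correlated with their own number were 5 of 6 samples of CVST and CVST+Ligation, 3 of 6 of CVST and 4-PBA and 6 of 6 of CVST+Ligation and 4-PBA. The labels do not say what the numbers stand for, and whether they mark a pairing or a batch was not tested. The main fit left the numbers out. With the number as a replicate block, 15, 17 and 1 members were called in CVST+Ligation against CVST, 4-PBA against CVST and 4-PBA against CVST+Ligation, against 12%, 17.9% and 3.53% of all genes. The causes of these changes were not tested.

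Genes past an adjusted p of 0.05 in CVST+Ligation against CVST numbered 3 with edgeR, 264 with DESeq2 and 13 with limma on log2(FPKM + 0.1), and in 4-PBA against CVST 18, 855 and 134, with 234 in a fit of only the groups compared, 112 without a filter, 142 with the length correction, 87 with limma on log2(FPKM + 1), 25 with the replicate block and 6 with at least 10 counts in every library. Without CVST 1, 2 or 3 they were 2, 3 and 162, without 4-PBA 1, 2 or 3 they were 2, 5 and 35, and without CVST 2 and CVST+Ligation 2 they were 295. In CVST+Ligation against CVST they ran from 0 to 7 when libraries were left out. The share of all called genes that were higher moved from 56.7% to 65.4% with total counts and 47.0% with the length correction in CVST+Ligation against CVST. It moved from 56.1% to 66.1%, 44.9% and, with limma, 72.4% in 4-PBA against CVST+Ligation, and from 52.4% to 65.1% and 36.8% in 4-PBA against CVST. With total counts 16 and 15 members were called lower in CVST+Ligation and in 4-PBA against CVST, against 3.45% and 5.38% of all genes, and with the length correction 16 and 17, against 5.34% and 11.4%. Depth limits Atf3, Maff and Inhba, which had fewer than 10 counts in a library.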

Other observations

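Other marker lists also moved with the groups. The 10 thalamic neuron markers summed to 85.8 to 89.5 CPM in CVST, 175 to 349 CPM in CVST+Ligation and 351 to 673 CPM in 4-PBA, and 6 of them were higher in CVST+Ligation and 9 in 4-PBA than in CVST at an unadjusted p below 0.05, against 5.47% and 8.07% of all genes. The 6 oligodendrocyte markers summed to 2511 to 3303 CPM, 2557 to 5752 CPM and 4443 to 7214 CPM, with 1 and 5 higher, against the same shares. Astrocyte markers summed to 1189 to 2056, 1306 to 1731 and 1128 to 2365 CPM, microglia markers to 633 to 705, 494 to 576 and 521 to 590 CPM, and markers of blood and infiltrating cells to 159 to 198, 157 to 337 and 183 to 218 CPM.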
